A study of Homo sapiens with 12 samples.

Results

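The genes of glycolysis, of the lactate and pyruvate steps that follow it and of the pentose phosphate pathway were followed through 12 RNA sequencing libraries of 3 hepatocellular carcinoma (HCC) cell lines. The members were taken from a list of 34 gene symbols, and the rule that took them used no measured value. The list itself was chosen with earlier results of these data known. Of the 34 symbols, 32 were among the 11548 genes of the expression table: 19 of glycolysis, 7 of the lactate and pyruvate steps and 6 of the pentose phosphate pathway. SLC2A3 and HK1 were not analysed here. Hep3B, MHCC97H and Huh7 cells, labelled as wild type, were left untreated or received AZD8055, compound #57 or both. AZD8055 is an inhibitor of the mTOR kinase and was given at 100 nM. Compound #57 is an allosteric inhibitor of the phosphatase SHP2. Its dose beside AZD8055 was 5 µM, and its dose when given alone to the sequenced cells was not given in the sources used here. There was 1 library for each line and treatment, so no condition had a replicate within a line. MHCC97H cells were exposed for 24 h and the other lines for 48 h, and the effects of exposure time and of the MHCC97H line cannot be told apart. The study asked how HCC cells respond to mTOR inhibition with and without SHP2 inhibition.

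Glycolysis takes up glucose, traps it as glucose phosphate, splits it into a pair of triose phosphates and ends at pyruvate. Pyruvate is either reduced to lactate and exported or oxidised by pyruvate dehydrogenase in mitochondria. The pentose phosphate pathway branches off at glucose phosphate, and its oxidative branch yields NADPH while its non-oxidative branch interconverts ribose and glycolytic sugars. Adult hepatocytes use a set of isoenzymes suited to both making and using glucose, and liver tumours often carry other isoenzymes. mTOR complex 1 is known to raise the expression of many glycolytic genes, in part through the transcription factors HIF1A and MYC.

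The libraries held between 10659952 and 15957252 reads, and between 98.6% and 99.3% of them fell in the genes of the table. Levels within a gene are given as scaled reads, that is reads per 10000000 of a library, and reads as counted are given for low genes and for ranges within a line. Differences are given as log2-fold changes. The share of all reads in 11 hepatocyte and liver cancer markers was 2.66% to 6.36% in Hep3B, 3.81% to 5.38% in Huh7 and 0.524% to 0.613% in MHCC97H. The 11 markers did not move as one in MHCC97H. There, 8 of them (ALB, APOA1, APOB, TTR, SERPINA1, TF, AFP and GPC3) had at most 834 reads in any library, with TTR at 0 to 3, and HNF4A had 775 to 2041. The epithelial keratins KRT8 and KRT18 of the same list were high in MHCC97H, at 43735 to 60890 and 15721 to 24563 reads. Of 9 markers of other cell types, 3 were in the table: PECAM1 at 5 to 617 reads, COL1A1 at 13 to 1069 and KRT19 at 1745 to 7856. COL1A1, a collagen of stromal cells, was higher in the combination than in untreated cells (2.15 ± 0.65 SE, adjusted p = 0.0289). Its part, and that of the other markers, in the results was not tested.

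Untreated MHCC97H cells put the largest share of their reads into the 32 genes. These genes took 1.06% of all reads in untreated Hep3B, 2.31% in untreated MHCC97H and 1.08% in untreated Huh7. With AZD8055 the shares were 0.792%, 1.58% and 0.593% in the same order, with compound #57 0.673%, 1.89% and 0.674%, and with the combination 0.560%, 1.34% and 0.503%. Every treated library had a lower share than the untreated library of its line, and the combination had the lowest share in each line. The widest exact 95% binomial interval of these shares, that of untreated MHCC97H, ran from 2.30% to 2.32% and covers counting error only. These are levels in bulk RNA, in which fewer cells of a type and less RNA per cell cannot be told apart. With the combination, the parts did not follow each other in any line. The glycolysis genes were at 0.524 of their untreated share in Hep3B, 0.503 in MHCC97H and 0.442 in Huh7. The pentose phosphate genes were at 0.732, 1.13 and 0.836 of theirs in the same order. In MHCC97H, the glycolysis genes went from 1.79% untreated to 0.899% with the combination. The pentose phosphate genes there were at 0.266% untreated, 0.251% with AZD8055, 0.287% with compound #57 and 0.300% with the combination.

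**Figure D1:**
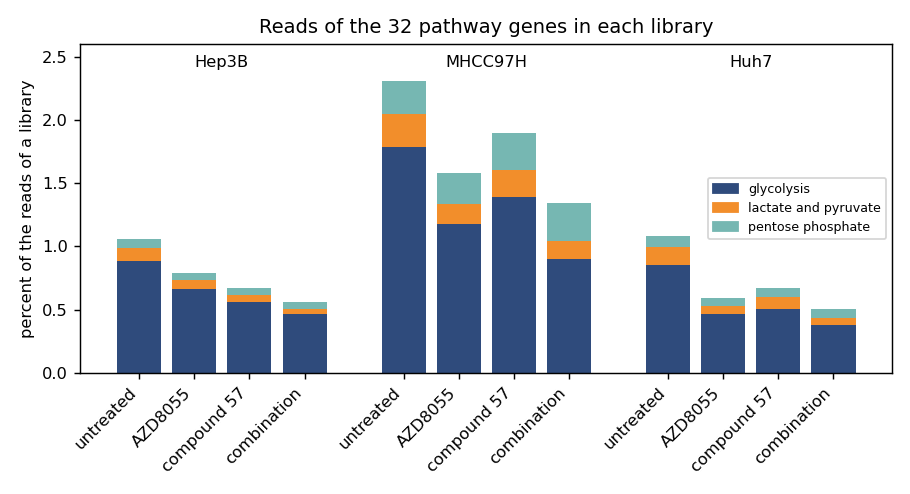
Percent of the reads of each library (vertical axis) in the 32 genes, stacked by part of the pathway, for the 4 treatments of each cell line (1 bar is 1 library). The bars of the combination are the shortest in each line, at 0.560% in Hep3B, 1.34% in MHCC97H and 0.503% in Huh7, and the pentose phosphate part of MHCC97H stays between 0.251% and 0.300%.

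Across the lines, a model with treatment and cell line as terms was fitted to all 11548 genes with limma, and genes with an adjusted p under 0.05 were called. The 3 lines served as the replicates of a treatment. With AZD8055 against untreated, 6 of the 32 members were lower and 0 higher, where 0.753% of all genes were called lower and 2.21% higher. Of the members, 27 of 32 had a negative estimate, and the median log2-fold change was -0.37 against 0.031 over all genes. In the combination against untreated, 14 members were lower and 3 higher, where 15.1% of all genes were called lower and 20.9% higher. The median of the members was -0.50 against 0.086 over all genes. Over all genes, 255 were higher and 87 lower with AZD8055, and 2410 higher and 1744 lower with the combination. With each library centred on its median, these counts were 256 and 217, and 1993 and 2229. With centring, the members counted 9 lower and 0 higher with AZD8055, and 16 lower and 2 higher with the combination. The calls depended on the lines fitted. Without Huh7, 0 members were called in either comparison. There, 0 of all genes were called with AZD8055, and 0 were lower and 11 higher with the combination. Without Hep3B, 0 members were lower with AZD8055, where 0 of all genes were lower and 1 higher. Without it the combination had 11 members lower and 2 higher, where 767 of all genes were lower and 1030 higher. Without MHCC97H, 1 member was lower with AZD8055, where 21 of all genes were lower and 88 higher. Without it the combination had 20 members lower and 3 higher, where 1711 of all genes were lower and 2067 higher. When only the libraries compared were fitted, 0 members were called with AZD8055, where 0 of all genes were lower and 2 higher.

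Compound #57 alone gave no member call. The fit called 0 of 32 members in either direction, and 0.00866% of all genes higher and 0% lower. At an unadjusted p under 0.05, 13 members were lower and 0 higher, where 8.1% of all genes were lower and 13.6% higher. The median log2-fold change of the members was -0.29 against 0.047 over all genes. Voom on the whole reads also called 0 members. Without MHCC97H, 9 members were called lower and 0 higher, where 311 of all genes were lower and 467 higher. The combination against AZD8055 also gave 0 member calls, and 0% of all genes were called higher and 0% lower, with limma and with voom. In that comparison 5 members were lower and 2 higher at an unadjusted p under 0.05, where 5.19% of all genes were lower and 9.3% higher. With each library centred on its median, 11 members in place of 5 were lower at that threshold. Centring also moved the median over all genes from 0.040 to 0.0011. The share of all genes lower at that threshold after centring was not counted. Against compound #57, the combination had 6 members lower and 0 higher, where 1.57% of all genes were called lower and 2.62% higher. Leaving out Huh7, Hep3B or MHCC97H gave 0 lower members, where 0, 0 and 153 of all genes were lower in the same order. When only the libraries compared were fitted, 2 members were lower, where 92 of all genes were. The comparisons with untreated cells share the untreated libraries, and those of the combination share the combination libraries, so their values stand side by side and are not independent.

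**Figure D2:**
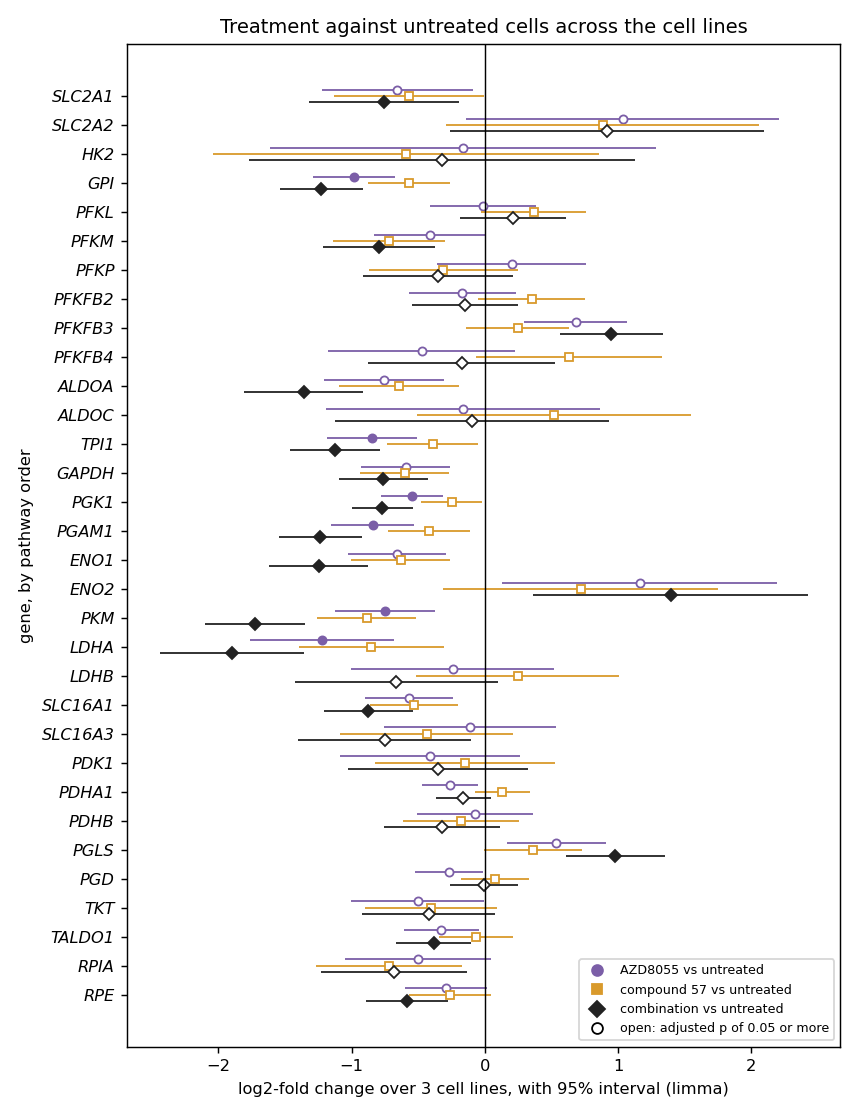
Log2-fold change of each of the 32 genes over the 3 cell lines (horizontal axis, limma estimate with its 95% interval) for AZD8055, compound #57 and the combination, each against untreated cells. Filled symbols have an adjusted p under 0.05: 6 with AZD8055, 0 with compound #57 and 17 with the combination.

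Directions were also read within each line, where 1 library stands against 1 and no test was possible. With AZD8055, 19 of 32 members were lower in all 3 lines, where 25.7% of all genes were. With compound #57 the count was 14, where 19.7% of all genes were, and with the combination it was 16, where 25.6% were. A value at least 1.5-fold lower in all 3 lines was seen in 4 members with AZD8055 (GPI, TPI1, PGAM1 and LDHA), where 0.918% of all genes had one. In the combination against untreated it was seen in 10 members (GPI, ALDOA, TPI1, GAPDH, PGK1, PGAM1, ENO1, PKM, LDHA and SLC16A1), where 5.03% of all genes had one. In the combination against AZD8055 it was seen in PKM alone among the members, where 0.649% of all genes had one.

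The count of lower members varied between the lines, and that difference could not be tested. With AZD8055, 7 members were at least 1.5-fold lower in Hep3B, where 4.32% of all genes were, 8 in MHCC97H, where 10.5% were, and 18 in Huh7, where 10.1% were. With compound #57, 13 members were at least 1.5-fold lower in Hep3B, where 12.6% of all genes were, 2 in MHCC97H, where 2.76% were, and 12 in Huh7, where 5.57% were. The middle value of the 32 log2-fold changes in the combination was -0.76 in Huh7, -0.70 in Hep3B and -0.28 in MHCC97H.

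**Figure D3:**
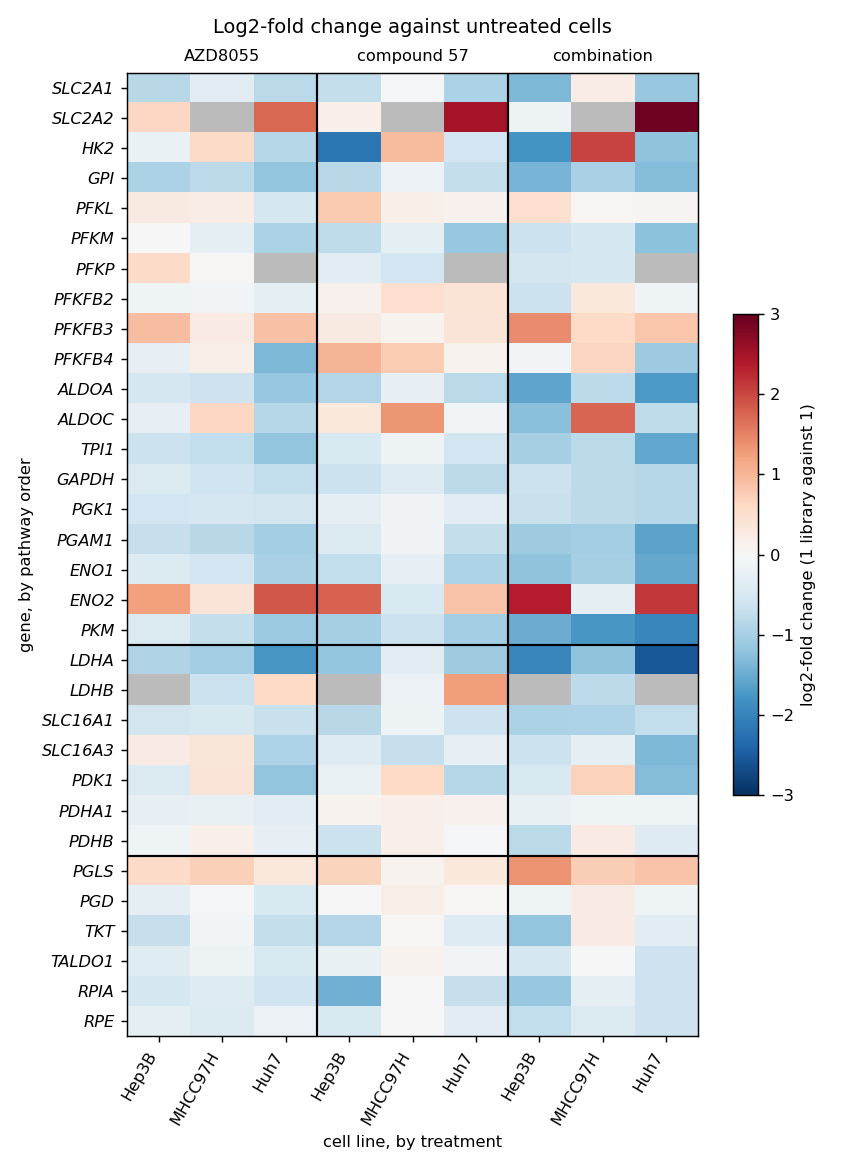
Log2-fold change of the 32 genes (rows, by pathway order, with lines between glycolysis, the lactate and pyruvate steps and the pentose phosphate pathway) in each cell line and treatment against the untreated library of the line (columns). Blue is lower and red higher, on a scale from -3 to 3, and grey marks pairs of libraries with 3 reads or fewer in both. LDHA with the combination in Huh7, at -2.54, is the lowest value, and the rows from ALDOA to LDHA are mostly blue apart from ALDOC and ENO2.

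The start sites of the members were read beside these values, since many members moved together. Of the 32 members, 30 matched a RefSeq promoter on GRCh38.p14, taken as 250 bases before to 50 bases after the start. The core of the hypoxia response element, ACGTG on either strand, was in 10 of the 30 (33.3%), namely HK2, GPI, ALDOA, ALDOC, GAPDH, PGK1, ENO2, LDHA, PDHB and PGD. The same letters were in 27.3% of the promoters of the table genes and in 21.6% of all 27305 promoters. The E-box CACGTG, which holds that core on both strands, was in 4 of the 30 (13.3%; ALDOC, GAPDH, LDHA and PDHB), in 10.5% of the promoters of the table genes and in 7.43% of all promoters. The ATF and CREB core TGACG, on either strand, was in 8 of the 30 (26.7%), in 35.2% of the promoters of the table genes and in 25.0% of all promoters. A TATA box, TATAAA on either strand, was in 3 of the 30 (SLC2A1, LDHB and PDK1), in 4.95% of the promoters of the table genes and in 11.95% of all promoters. Below stand the promoters of LDHA, the member with the lowest estimate in the combination, of PGK1, which held the core outside an E-box, and of PFKFB3, a member that rose. Capitals mark the core on either strand. LDHA lies at chr11:18394313-18394612 on the plus strand, PGK1 at chrX:78103998-78104297 on the plus strand and PFKFB3 at chr10:6144671-6144970 on the plus strand.
LDHA: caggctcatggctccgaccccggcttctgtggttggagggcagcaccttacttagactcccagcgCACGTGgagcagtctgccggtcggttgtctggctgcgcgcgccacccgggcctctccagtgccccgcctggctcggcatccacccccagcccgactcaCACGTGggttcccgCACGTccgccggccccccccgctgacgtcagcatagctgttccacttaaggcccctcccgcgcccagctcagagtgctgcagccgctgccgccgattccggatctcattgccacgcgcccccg
PGK1: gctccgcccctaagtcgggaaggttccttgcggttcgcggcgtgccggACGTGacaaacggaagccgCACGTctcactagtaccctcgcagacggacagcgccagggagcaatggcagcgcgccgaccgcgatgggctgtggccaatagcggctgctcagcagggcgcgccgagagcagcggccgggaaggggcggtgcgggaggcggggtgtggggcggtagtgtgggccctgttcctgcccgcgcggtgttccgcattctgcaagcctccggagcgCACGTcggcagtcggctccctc
PFKFB3: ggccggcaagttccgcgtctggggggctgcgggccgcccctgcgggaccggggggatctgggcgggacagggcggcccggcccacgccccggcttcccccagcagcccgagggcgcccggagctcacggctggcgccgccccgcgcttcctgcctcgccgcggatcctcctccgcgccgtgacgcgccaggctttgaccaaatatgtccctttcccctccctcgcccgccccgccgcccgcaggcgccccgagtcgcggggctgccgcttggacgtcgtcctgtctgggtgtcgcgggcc
The LDHA window held 5 starts of the core, of which 4 belonged to the pair of E-boxes, and PGK1 held 3. The PFKFB3 window held 0, as did those of PGAM1, TPI1 and PKM, which fell with AZD8055. A match is a description of the letters and not a binding site.

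The glucose transporters differed between the lines. SLC2A1 encodes GLUT1, the widespread glucose transporter, and SLC2A2 encodes GLUT2, the transporter of hepatocytes. In Hep3B, SLC2A1 had 252 scaled reads untreated, 141 with AZD8055, 153 with compound #57 and 98.1 with the combination. In MHCC97H, SLC2A1 had 1305 scaled reads untreated, 1042 with AZD8055, 1281 with compound #57 and 1519 with the combination. In Huh7, SLC2A1 had 628 scaled reads untreated, 358 with AZD8055, 323 with compound #57 and 287 with the combination. It was thus lower in all treated Hep3B and Huh7 libraries than in their untreated ones, and the MHCC97H combination library was above its untreated one. Over the lines SLC2A1 was lower with the combination (-0.75 ± 0.25 SE, adjusted p = 0.0419) and had an estimate of -0.66 ± 0.25 SE with AZD8055 (adjusted p = 0.131). SLC2A2 went the other way in Huh7, with 62.0 scaled reads untreated, 207 with AZD8055, 354 with compound #57 and 474 with the combination. In Hep3B, SLC2A2 had 835 scaled reads untreated, 1280.1 with AZD8055, 934 with compound #57 and 746 with the combination. It was at 0 or 1 read in MHCC97H, so that untreated MHCC97H was at least 362-fold below Hep3B, counted against a floor of 3 reads per library. Per kilobase of transcript, SLC2A1 made up 22.1% of the sum of both transporters in untreated Hep3B and 90.5% in untreated Huh7. In Huh7 this share was 61.9% with AZD8055, 46.2% with compound #57 and 36.2% with the combination. With the union of all exons as length, the shares were 13.5% in untreated Hep3B and, in Huh7, 83.9% untreated, 47.2% with AZD8055 and 23.8% with the combination.

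HK2, the hexokinase of muscle and of many tumours, traps glucose in the cell. It had 3849.9 scaled reads untreated, 3335 with AZD8055, 854 with compound #57 and 1113 with the combination in Hep3B. In Huh7 it had 1442 scaled reads untreated, 799.6 with AZD8055, 975 with compound #57 and 624 with the combination. In MHCC97H it had 7 to 31 reads in all, and untreated Hep3B was 716-fold higher (95% counting interval 347 to 1782). Compound #57 came with low HK2 in Hep3B, where the AZD8055 library was near the untreated one. The spread between lines was wide, and the estimate over the lines was -0.59 ± 0.65 SE for compound #57 (adjusted p = 0.618) and -0.32 ± 0.65 SE for the combination (adjusted p = 0.718). HKDC1, a further hexokinase of the wider pathway, had 2056 to 2899 reads in MHCC97H, 99 to 1050 in Hep3B and 14 to 45 in Huh7.

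GPI, the isomerase that turns glucose phosphate into fructose phosphate, was lower in every treated library than in the untreated library of its line. In Hep3B, GPI had 2349.9 scaled reads untreated, 1215 with AZD8055, 1314 with compound #57 and 889.8 with the combination. In MHCC97H, GPI had 5533 scaled reads untreated, 3179 with AZD8055, 4910.0 with compound #57 and 2799 with the combination. In Huh7, GPI had 2068 scaled reads untreated, 903 with AZD8055, 1269 with compound #57 and 841 with the combination. The untreated library was the highest and the combination the lowest in each line. Over the lines GPI fell with AZD8055 (-0.98 ± 0.14 SE, adjusted p = 0.0268) and with the combination (-1.23 ± 0.14 SE, adjusted p = 0.00169), and the combination was below compound #57 (-0.66 ± 0.14 SE, adjusted p = 0.0383). Compound #57 alone gave -0.57 ± 0.14 SE (adjusted p = 0.0990). The gene lies at chr19:34359480-34402413 on hg38.

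Phosphofructokinase, the committing step of glycolysis, is built from a liver (PFKL), a muscle (PFKM) and a platelet subunit (PFKP). In Hep3B, PFKM had 247 scaled reads untreated, 243 with AZD8055, 146 with compound #57 and 157 with the combination. In MHCC97H, PFKM had 1358 scaled reads untreated, 1133 with AZD8055, 1134 with compound #57 and 947 with the combination. In Huh7, PFKM had 1527 scaled reads untreated, 790.5 with AZD8055, 691 with compound #57 and 652 with the combination. Each combination library was lower than its untreated one, and PFKM fell over the lines with the combination (-0.80 ± 0.19 SE, adjusted p = 0.0116). PFKL had estimates of -0.02 ± 0.18 SE with AZD8055, 0.37 ± 0.18 SE with compound #57 and 0.21 ± 0.18 SE with the combination, and passed no treatment test. Per kilobase, PFKL made up 34.6% of the sum of PFKL and PFKM in untreated Huh7 and 56.5% with the combination. These shares were 41.9% and 63.9% with the union of all exons as length, and 48.6% and 69.9% with the canonical transcript. PFKP was the subunit that told the lines apart, with 43 to 94 reads in Hep3B, 1439 to 2768 in MHCC97H and 0 in all 4 libraries of Huh7. Untreated MHCC97H had at least 1007-fold more PFKP than untreated Huh7, against a floor of 3 reads per library, and 36.7-fold more than Hep3B (95% counting interval 28.1 to 48.9).

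PFKFB3, the enzyme that makes the activator of phosphofructokinase, was among the few members that rose. In Hep3B, PFKFB3 had 725 scaled reads untreated, 1373 with AZD8055, 868 with compound #57 and 1947 with the combination. In MHCC97H, PFKFB3 had 1459.7 scaled reads untreated, 1730.3 with AZD8055, 1569 with compound #57 and 2208 with the combination. In Huh7, PFKFB3 had 964 scaled reads untreated, 1780.4 with AZD8055, 1253 with compound #57 and 1714 with the combination. Every treated library was above the untreated one of its line. The rise passed the test in the combination (0.95 ± 0.17 SE, adjusted p = 0.00473), and the estimate with AZD8055 was 0.68 ± 0.17 SE (adjusted p = 0.0575). The related PFKFB2 and PFKFB4 passed no treatment test. In Huh7, PFKFB4 had 189.9 scaled reads untreated, 74.0 with AZD8055, 206 with compound #57 and 88.6 with the combination, so that both Huh7 libraries with AZD8055 were low.

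The steps from fructose bisphosphate to pyruvate held 7 of the 14 members that fell with the combination. ALDOA, the main aldolase of tumours and muscle, had log2-fold changes of -1.73 in Huh7, -1.57 in Hep3B and -0.78 in MHCC97H with the combination. Over the lines it fell with the combination (-1.36 ± 0.20 SE, adjusted p = 0.00293) and had -0.76 ± 0.20 SE with AZD8055 (adjusted p = 0.0622). ALDOC, the aldolase of brain, had 18.4 scaled reads untreated, 28.8 with AZD8055, 47.4 with compound #57 and 63.9 with the combination in MHCC97H. In Hep3B it had 645 scaled reads untreated, 542 with AZD8055, 806 with compound #57 and 268 with the combination. The direction of ALDOC with the combination thus was opposite in these lines, and its estimate over the lines was -0.10 ± 0.46 SE (adjusted p = 0.882).

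TPI1, the isomerase of the triose phosphates, had 4503 scaled reads untreated, 2889.9 with AZD8055, 3287 with compound #57 and 2249 with the combination in Hep3B. In MHCC97H, TPI1 had 7923 scaled reads untreated, 4768 with AZD8055, 7157 with compound #57 and 4516 with the combination. In Huh7, TPI1 had 6198 scaled reads untreated, 2749.6 with AZD8055, 4155 with compound #57 and 2092 with the combination. In each line AZD8055 was below compound #57, and the combination was the lowest. TPI1 fell over the lines with AZD8055 (-0.85 ± 0.15 SE, adjusted p = 0.0335) and with the combination (-1.13 ± 0.15 SE, adjusted p = 0.00239), and the combination was below compound #57 (-0.73 ± 0.15 SE, adjusted p = 0.0372).

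GAPDH, which oxidises the triose phosphate, was the member with the highest mean level in the table. In Hep3B, GAPDH had 29831 scaled reads untreated, 22157 with AZD8055, 19204 with compound #57 and 19042 with the combination. In MHCC97H, GAPDH had 51436 scaled reads untreated, 33950.5 with AZD8055, 39367 with compound #57 and 30018 with the combination. In Huh7, GAPDH had 28649.7 scaled reads untreated, 17040 with AZD8055, 16613 with compound #57 and 15779 with the combination. All treated libraries were lower than their untreated library. The fall passed the test with the combination (-0.76 ± 0.15 SE, adjusted p = 0.00603), and the estimates were -0.59 ± 0.15 SE with AZD8055 (adjusted p = 0.0568) and -0.60 ± 0.15 SE with compound #57 (adjusted p = 0.101). Processed copies of GAPDH, PGK1, LDHA, ENO1, PGAM1, TPI1 and PKM are spread over the genome, and how reads shared with them were counted was not given in the sources used here, so the levels of these genes are uncertain to that extent.

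PGK1, the kinase that yields the first ATP of the lower pathway, moved by similar steps in the lines. Its log2-fold changes with AZD8055 were -0.56 in Huh7, -0.57 in Hep3B and -0.51 in MHCC97H, and with the combination -0.85 in Huh7, -0.67 in Hep3B and -0.78 in MHCC97H. Over the lines PGK1 fell with AZD8055 (-0.55 ± 0.10 SE, adjusted p = 0.0375), with the combination (-0.77 ± 0.10 SE, adjusted p = 0.00239) and in the combination against compound #57 (-0.52 ± 0.10 SE, adjusted p = 0.0331). PGAM1, the phosphoglycerate mutase, had 2561 scaled reads untreated, 1598 with AZD8055, 1893 with compound #57 and 1224 with the combination in Hep3B. In MHCC97H, PGAM1 had 2115 scaled reads untreated, 1186 with AZD8055, 1957 with compound #57 and 1022 with the combination. In Huh7, PGAM1 had 3746 scaled reads untreated, 1859 with AZD8055, 2291 with compound #57 and 1238 with the combination. The untreated library was the highest and the combination the lowest in each line. PGAM1 fell with AZD8055 (-0.84 ± 0.14 SE, adjusted p = 0.0304) and with the combination (-1.24 ± 0.14 SE, adjusted p = 0.00169). Against compound #57, the combination was lower by the smallest adjusted p of the members (-0.82 ± 0.14 SE, adjusted p = 0.0250).

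The enolases moved in opposite directions with the combination. ENO1, the widespread enolase, with the combination had log2-fold changes of -1.54 in Huh7 and -1.20 in Hep3B. In MHCC97H it had 26921 scaled reads untreated, 17974 with AZD8055, 22815 with compound #57 and 13482 with the combination. It fell over the lines with the combination (-1.25 ± 0.17 SE, adjusted p = 0.00230) and had -0.66 ± 0.17 SE with AZD8055 (adjusted p = 0.0561). ENO2, the enolase of neurons, had 77.9 scaled reads untreated, 184 with AZD8055, 268 with compound #57 and 404 with the combination in Hep3B. In Huh7, ENO2 had 39.5 scaled reads untreated, 147 with AZD8055, 72.3 with compound #57 and 176 with the combination. In MHCC97H, ENO2 had 184 scaled reads untreated, 241 with AZD8055, 133 with compound #57 and 149 with the combination. It was thus higher in treated than in untreated Hep3B and Huh7 cells, while in MHCC97H it was above the untreated library with AZD8055 alone. ENO2 rose over the lines with the combination (1.39 ± 0.46 SE, adjusted p = 0.0406). Its level stayed far below that of ENO1: per kilobase, ENO2 was 0.449% of the sum of both in untreated Hep3B and 5.10% with the combination, and 0.241% and 3.04% in Huh7.

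PKM, the pyruvate kinase of most tissues other than liver, had the smallest adjusted p of the members in the combination. In Hep3B, PKM had 10785 scaled reads untreated, 8036 with AZD8055, 5374 with compound #57 and 3866 with the combination. In MHCC97H, PKM had 51917 scaled reads untreated, 31601 with AZD8055, 33299.5 with compound #57 and 15582 with the combination. In Huh7, PKM had 13656 scaled reads untreated, 6337 with AZD8055, 6742 with compound #57 and 3511 with the combination. Both single-drug libraries lay below the untreated one in every line, and the combination library lay below them. Over the lines PKM fell with AZD8055 (-0.75 ± 0.17 SE, adjusted p = 0.0467) and with the combination (-1.73 ± 0.17 SE, adjusted p = 0.00119), and the combination was below compound #57 (-0.84 ± 0.17 SE, adjusted p = 0.0336). The estimate was -0.89 ± 0.17 SE with compound #57 (adjusted p = 0.0912) and -0.98 ± 0.17 SE for the combination against AZD8055 (adjusted p = 0.145), the smallest adjusted p of the members in each of these comparisons. The table holds 1 value for the gene at chr15:72199029-72231819, so its spliced forms could not be told apart.

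**Figure D4:**
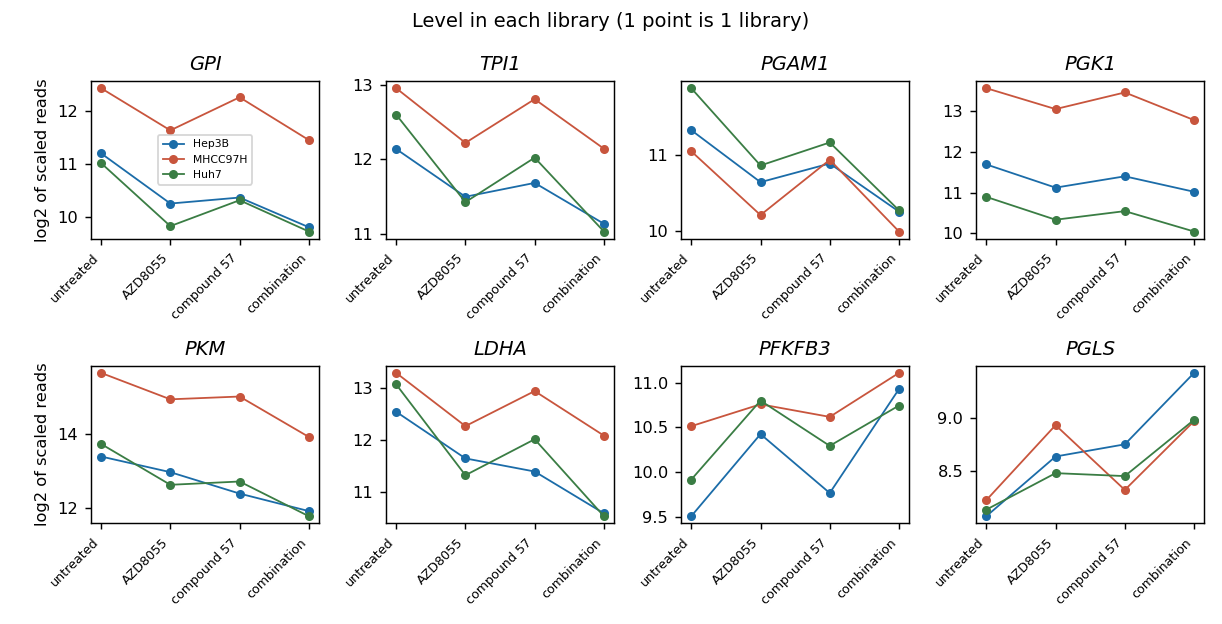
Log2 of the scaled reads (vertical axes, which do not start at 0) of GPI, TPI1, PGAM1, PGK1, PKM, LDHA, PFKFB3 and PGLS in the 4 libraries of each cell line. A point is 1 library and lines join libraries of the same cell line. For the first 6 genes the combination is the lowest point of each line, and for PFKFB3 and PGLS every treated point lies above the untreated one.

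LDHA, the lactate dehydrogenase subunit that favours lactate production, had the lowest estimate of the members with AZD8055 and with the combination. In Hep3B, LDHA had 5933 scaled reads untreated, 3185 with AZD8055, 2674 with compound #57 and 1530.0 with the combination. In MHCC97H, LDHA had 9969 scaled reads untreated, 4901 with AZD8055, 7822 with compound #57 and 4317 with the combination. In Huh7, LDHA had 8550.3 scaled reads untreated, 2544 with AZD8055, 4113 with compound #57 and 1473 with the combination. The combination left the fewest reads in each line, and the lowest log2-fold change was that of Huh7, at -2.54. Over the lines LDHA fell with AZD8055 (-1.22 ± 0.24 SE, adjusted p = 0.0390) and with the combination (-1.90 ± 0.24 SE, adjusted p = 0.00211), and the combination was below compound #57 (-1.05 ± 0.24 SE, adjusted p = 0.0450). Compound #57 alone gave -0.85 ± 0.24 SE (adjusted p = 0.117), with the smallest change in MHCC97H, at -0.35. The gene lies at chr11:18394560-18408425 on hg38, and its promoter is the first one printed above.

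LDHB, the subunit of heart, was high in the MHCC97H libraries and near 0 in the others. It had 0 to 2 reads in Hep3B, 3 to 8 in Huh7 and 9276 to 16852 in MHCC97H. Between untreated cells, MHCC97H was 6901-fold above Hep3B (95% counting interval 1910 to 56986) and 6887-fold above Huh7 (2356 to 33397). Per kilobase, LDHB made up 65.4% of the sum of LDHA and LDHB in untreated MHCC97H and 71.7% with the combination. In MHCC97H the log2-fold change of LDHB was -0.65 with AZD8055, -0.19 with compound #57 and -0.79 with the combination. The few reads in the other lines carry no treatment comparison.

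SLC16A1 encodes MCT1 and SLC16A3 encodes MCT4, the carriers that move lactate across the cell membrane. SLC16A1 had log2-fold changes with the combination of -0.75 in Huh7, -0.95 in Hep3B and -0.92 in MHCC97H, and fell over the lines (-0.87 ± 0.15 SE, adjusted p = 0.00384). With AZD8055 it had -0.57 ± 0.15 SE (adjusted p = 0.0606). SLC16A3 had -0.92 in Huh7, 0.23 in Hep3B and 0.35 in MHCC97H with AZD8055, so that Huh7 went against the other lines, and passed no treatment test. Per kilobase, SLC16A3 made up 48.6% of the sum of both carriers in untreated Hep3B, 46.0% in untreated MHCC97H and 28.1% in untreated Huh7. In the first pair of lines the share was 41.8% and 39.3% with the union of all exons as length. With the length of the canonical transcript it was 60.1% and 57.6% in that pair. PDHA1 and PDHB, subunits of pyruvate dehydrogenase, had estimates of -0.16 ± 0.09 SE and -0.32 ± 0.20 SE with the combination, and PDK1, the kinase that shuts the enzyme off, had -0.35 ± 0.30 SE. None of the 3 was called in a treatment comparison.

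In the pentose phosphate pathway, 2 of 6 members fell and 1 rose with the combination, where 15.1% of all genes were called lower and 20.9% higher. With AZD8055 0 of the 6 were called, where 0.753% of all genes were called lower and 2.21% higher. PGLS, the lactonase of the oxidative branch, was the one that rose. In Hep3B, PGLS had 268 scaled reads untreated, 397 with AZD8055, 429.6 with compound #57 and 686 with the combination. In MHCC97H, PGLS had 298 scaled reads untreated, 487 with AZD8055, 319 with compound #57 and 500.0 with the combination. In Huh7, PGLS had 280.1 scaled reads untreated, 356 with AZD8055, 349 with compound #57 and 504 with the combination. All treated libraries were above the untreated one, and the combination was the highest in each line. The rise with the combination was 0.98 ± 0.17 SE (adjusted p = 0.00384). PGD, the dehydrogenase that follows it, had -0.01 ± 0.11 SE with the combination (adjusted p = 0.969), with a 95% interval of -0.26 to 0.25.

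Of the 4 members of the non-oxidative branch, 2 fell with the combination, where 15.1% of all genes were called lower. RPE, the ribulose phosphate epimerase, fell with the combination (-0.59 ± 0.14 SE, adjusted p = 0.0113), with -0.61 in Huh7, -0.74 in Hep3B and -0.42 in MHCC97H. TALDO1, the transaldolase, fell with the combination (-0.38 ± 0.13 SE, adjusted p = 0.0388), with -0.62 in Huh7, -0.51 in Hep3B and -0.02 in MHCC97H. The change of TALDO1 was thus near 0 in MHCC97H. RPIA, the ribose phosphate isomerase, had -0.68 ± 0.25 SE (adjusted p = 0.0540), and TKT, the transketolase, had -0.42 ± 0.22 SE (adjusted p = 0.159). TKT had -0.32 in Huh7, -1.18 in Hep3B and 0.24 in MHCC97H, so that MHCC97H went against the other lines.

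No departure from the sum of the single drugs was detected. The interaction contrast, which sets the combination against that sum on the log2 scale, called 0 members and 0 genes with limma and 0 with voom. At an unadjusted p under 0.05, 0 members passed, where 0.979% of all genes were higher and 0.563% lower. For LDHA the interaction was 0.18 with a 95% interval of -0.59 to 0.94, and for PKM it was -0.09 with an interval of -0.62 to 0.44. For GAPDH it was 0.43 (-0.04 to 0.90), and the combination was above the sum of the single changes by 0.68 in Huh7, 0.42 in Hep3B and 0.21 in MHCC97H. The intervals show the size of interaction that these libraries leave undetected. Median differences between the combination and the sum over the 32 members were 0.17 in Huh7, 0.063 in Hep3B and -0.014 in MHCC97H.

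Many of these genes differed between the lines. Averaged over the treatments, 17 members were higher and 8 lower in MHCC97H than in Hep3B, where 29.2% of all genes were called higher and 38.6% lower. Against Huh7, 16 were higher and 9 lower in MHCC97H, where 33.8% of all genes were called higher and 36.4% lower. Between Huh7 and Hep3B, 8 were higher in Huh7 and 8 lower, where 24.5% of all genes were called higher and 30.7% lower. The 4 libraries of a line under different treatments stood in for replicates here. Without the untreated libraries, 5 members in place of 8 were lower in MHCC97H than in Hep3B, where 3936 of all genes in place of 4456 were. Among the members higher in MHCC97H were PGD, TKT and TALDO1 of the pentose phosphate pathway. PGD had 10248 scaled reads in untreated MHCC97H, 2307 in Hep3B and 3111 in Huh7, a difference of 2.34 ± 0.10 SE against Hep3B (adjusted p = 2.35e-08). TKT was 2.70 ± 0.19 SE above Hep3B (adjusted p = 1.08e-06), and TALDO1 2.78 ± 0.11 SE (adjusted p = 1.28e-08). PKM was 2.22 ± 0.15 SE above Hep3B and 2.17 ± 0.15 SE above Huh7 (adjusted p = 5.72e-07 and 5.45e-07), while Huh7 and Hep3B differed by 0.05 ± 0.15 SE (adjusted p = 0.807). PGK1 was 1.91 ± 0.09 SE above Hep3B and 2.76 ± 0.09 SE above Huh7. Below both other lines stood HK2, SLC2A2, ALDOC, SLC16A1, PDHA1, PDHB and PFKFB4.

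**Figure D5:**
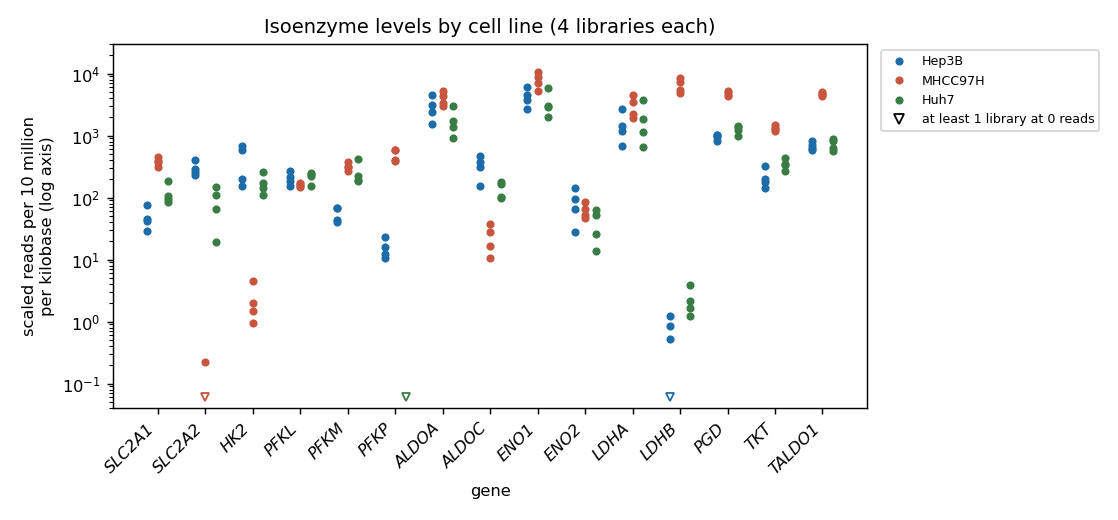
Scaled reads per kilobase of the longest annotated transcript (vertical log axis) of 15 members in the 4 libraries of each cell line (1 point is 1 library). Open triangles at the foot mark lines with at least 1 library at 0 reads. LDHB and PFKP are high in MHCC97H and low or at 0 in the other lines, and HK2, SLC2A2 and ALDOC are low in MHCC97H.

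Of 59 further genes of the wider pathway, 39 were in the table. With AZD8055, 1 of them was lower and 0 higher, where 0.753% of all genes were called lower and 2.21% higher. With compound #57 0 were called, where 0% of all genes were called lower and 0.00866% higher. For compound #57 at an unadjusted p under 0.05, 7 were higher and 2 lower, where 13.6% of all genes were higher and 8.1% lower. The one lower with AZD8055 was MPC2, a subunit of the mitochondrial pyruvate carrier (-0.62 ± 0.13 SE, adjusted p = 0.0394). In the combination against untreated, 6 were lower and 5 higher, a share of the 39 that is close to the 15.1% of all genes for lower and below the 20.9% for higher. H6PD, which yields NADPH in the endoplasmic reticulum, was higher (1.21 ± 0.31 SE, adjusted p = 0.0151). PRPS1, which makes the ribose donor of nucleotides, was lower (-1.15 ± 0.19 SE, adjusted p = 0.00379), and PC, PDHX, MPC1 and GBE1 were lower too. The others that were higher were SLC2A8, PDK2 and a pair of genes of glucose sensing. MLXIPL, the glucose-sensing transcription factor ChREBP, was higher (1.78 ± 0.53 SE, adjusted p = 0.0274), and TXNIP, which restrains glucose uptake, was higher (2.28 ± 0.76 SE, adjusted p = 0.0411). With compound #57 alone, MLXIPL was above untreated by 1.35 to 1.98 on the log2 scale in the 3 lines. TXNIP had 27.7 scaled reads untreated, 364 with AZD8055, 45.7 with compound #57 and 693 with the combination in MHCC97H. In Hep3B it had 2445 scaled reads untreated, 5489 with AZD8055, 608 with compound #57 and 2078 with the combination. In Huh7 it had 291 scaled reads untreated, 464 with AZD8055, 336 with compound #57 and 1642 with the combination. It was above compound #57 in the combination library of each line, by 1.77 to 3.89 on the log2 scale. MPC2 was lower in the combination than with compound #57 (-0.77 ± 0.13 SE, adjusted p = 0.0234). Of the 39 genes, 0 were called in the combination against AZD8055, where 0% of all genes were called. At an unadjusted p under 0.05, 3 were higher and 3 lower there, where 9.3% of all genes were higher and 5.19% lower.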

How the data were processed

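Hep3B, MHCC97H and Huh7 cells under 4 treatments gave 12 polyA-selected, stranded RNA libraries, 1 for each line and treatment. The table the authors deposited holds log2 values of 11548 genes, from reads mapped on hg38. The aligner, the counting and the normalization are not given in the sources used here. The deposited log2 values gave whole reads for 100% of genes within a tolerance of 0.01 when taken as log2 of scaled reads (10000000 in each library) with about 1 added, where 0.001 stands for 0 reads, a scale inferred here from the numbers themselves. Total reads were 10659952 to 15957252 per library, which sets the counting error of each value. Symbols were matched to GENCODE release 44 on hg38 and promoters to RefSeq on GRCh38.p14. Of the gene names, 18 were turned into dates and 4 were repeated, and these are no members.

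Limma 3.58.1 (R 4.3.3) was fitted to the log2 values of all 12 libraries in a model of cell line plus treatment (eBayes on the mean trend, 6 residual degrees of freedom). P-values were two-sided and adjusted by Benjamini-Hochberg over 11548 genes, and a gene was called at an adjusted p under 0.05. Limma was used since the values are on a log2 scale. Libraries of the same line form the pairs, and their deviations from the treatment means correlated at 0.872 to 0.96 within a line (18 pairs) and at -0.737 to 0.101 between lines (36 pairs). The deviations of the 3 lines sum to 0 in each treatment, so high values within a line force lower ones between lines. The p-values of the treatment comparisons measure how treatment changes spread between the cell lines, pooled over the 4 treatments. Those of the comparisons between lines use the same residual spread, and no line had replicate libraries of a treatment. Within a line, changes were differences of 2 log2 values without a test. Intervals of read ratios and shares are 95% Clopper-Pearson intervals for counting error only, and PCR reads without molecular identifiers are not independent molecules. Folds against 0 reads use a floor of 3 reads per library. Levels between genes were compared per kilobase of the longest annotated transcript.

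The members and lists were chosen with earlier results of these data known. Full values were given for members called in a treatment comparison, for isoenzymes with the largest change or difference between lines, and for members changed at least 1.5-fold in all lines. Alternatives were 10 added in place of 1, libraries centred on their median, the 75% of genes with the highest mean, voom on whole reads, no cell line term, each line or treatment left out, only the libraries compared, and other gene lengths, of which the canonical transcript was added after seeing the data. The values of 1 gene of the wider pathway are not reported here. The fit was run on simulated counts with the same drug effect in every line. That run cannot assess how the fit handles drug effects that differ between lines. Intervals came from scipy 1.17.1 under Python 3.11.15, and figures from matplotlib 3.10.9.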

Additional observations from a re-analysis of the deposited data

Results flagged for a closer look

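In 6 members the same comparison moved in opposite directions between cell lines, by at least 1.5-fold on each side and with each counting interval clear of 0. All 5 comparisons of treatments were searched, in the members only. The share of all genes that meet the same rule was not counted. Whether 6 members are more or fewer than usual was thus not tested. With 1 library per line and treatment, the differences between lines were not tested, and exposure time cannot be told apart from the MHCC97H line. In the combination against untreated, HK2 had a log2-fold change of 2.03 in MHCC97H, on 7 and 31 reads, of -1.79 in Hep3B and of -1.21 in Huh7. Against AZD8055 it had 1.47 in MHCC97H and -1.58 in Hep3B, and against compound #57 1.07 in MHCC97H and -0.64 in Huh7. ALDOC in the combination against untreated had 1.74 in MHCC97H, on 24 and 79 reads, -1.26 in Hep3B and -0.77 in Huh7, and against AZD8055 1.12 in MHCC97H and -1.01 in Hep3B. For PDK1, the combination against untreated gave -1.29 in Huh7 and 0.69 in MHCC97H, and compound #57 alone gave -0.85 and 0.59 in the same order. PFKFB4 in the combination against untreated had 0.66 in MHCC97H, on 45 and 68 reads, and -1.09 in Huh7. ENO2 had 1.13 in Hep3B and -0.69 in MHCC97H when the combination was set against AZD8055, where SLC2A2 had 1.19 in Huh7 and -0.78 in Hep3B.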

How the results depend on the processing

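The paired fit rests on the cell line. With no replicate block, that is without the cell line term, the count of members called lower was 0 in place of 6 with AZD8055, 0 in place of 14 with the combination and 0 in place of 6 in the combination against compound #57, and 0 in place of 3 were higher with the combination. Without that term, 0 of all genes were called in these comparisons. With only the libraries compared, 0 members were lower with AZD8055, where 0 of all genes were. In the combination against compound #57, that fit had 2 members lower, where 92 of all genes were. Leaving out each line in turn gave 0 to 1 lower with AZD8055, 0 to 9 with compound #57, 0 to 20 lower and 0 to 3 higher with the combination, and 0 to 0 in the combination against compound #57. Over all genes, leaving out each line gave 0 to 21 lower with AZD8055 and 0 to 311 with compound #57. It gave 0 to 1711 lower and 11 to 2067 higher with the combination, and 0 to 153 lower in the combination against compound #57. Leaving out each treatment gave 5 to 8 members lower in MHCC97H than in Hep3B, where 3936 to 4179 of all genes were lower. Among the 75% of genes with the highest mean, 1 member was higher in the combination against compound #57, in place of 0. Fewer lines or fewer libraries leave fewer degrees of freedom for the spread, and the cause of the other shifts was not tested.

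The estimate of ENO2 in the combination against AZD8055 ranged from -0.22 without Hep3B to 0.69 without MHCC97H, with 0.23 over all lines. PKM in Huh7 against Hep3B ranged from -0.051 without the untreated libraries to 0.18 without those of AZD8055, and was -0.047 without those of compound #57. Per kilobase of the canonical transcript, SLC16A3 made up 60.1% of the sum of SLC16A3 and SLC16A1 in untreated Hep3B and 57.6% in MHCC97H, in place of 48.6% and 46.0%. These shares were 41.8% and 39.3% with the union of all exons. With the union of all exons, SLC2A1 made up 13.5% of the sum of SLC2A1 and SLC2A2 in untreated Hep3B, in place of 22.1%, and 23.8% in Huh7 with the combination, in place of 36.2%. Adding 10 in place of 1, centring the libraries on their median and voom kept the other counts of members called at an adjusted p under 0.05 within 1.5 times. At an unadjusted p under 0.05, centring gave 11 members lower in the combination against AZD8055, in place of 5. The share of all genes lower at that threshold after centring was not counted. Depth limits chiefly the values of SLC2A2, HK2 and ALDOC in MHCC97H, LDHB and PFKP in the other lines and PFKFB4.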

Other observations

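GAPDH is the gene to which the study scaled its quantitative PCR. In these libraries its log2-fold change was -0.75 in Huh7, -0.43 in Hep3B and -0.60 in MHCC97H with AZD8055, -0.79 in Huh7, -0.64 in Hep3B and -0.39 in MHCC97H with compound #57 and -0.86 in Huh7, -0.65 in Hep3B and -0.78 in MHCC97H with the combination. Its share of reads was thus lower in all 9 treated libraries than in the untreated library of the same line. With limma over the lines, GAPDH was called with the combination (adjusted p = 0.00603) and not with AZD8055 (adjusted p = 0.0568). The PCR of the study was of cells given AZD8055 for 48 h, while the MHCC97H libraries here are of 24 h. The study also measured its receptors by RNA sequencing and phospho-receptor arrays. Whether the change of GAPDH bears on that PCR was not tested.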
